A study of Mus musculus with 13 samples.

Results

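The circadian clock genes are a set of 10 named genes among the 53465 genes counted in mouse liver. They were chosen by name, as core loop and output genes of the clock, and not by a measured value: *Arntl*, *Clock*, *Npas2*, *Per1*, *Per2*, *Per3*, *Cry1*, *Nr1d1*, *Dbp* and *Tef*. Earlier results of these data were known when they were chosen. Liver RNA came from 6 WT and 7 *Nod2*-/- male mice of the BALB/c strain, with 1 library per mouse. *Nod2* codes for an intracellular sensor of bacterial peptidoglycan and the *Nod2*-/- mice lack it. Both genotypes had received the carcinogen DMBA as pups and a high fat diet, and the labels give 30 weeks of diet, an age of 30 weeks and a disease state of cancer for all 13 mice, so every value below belongs to livers under this regimen. The paper reports liver tumors in most *Nod2*-/- males but in a minority of WT males under this regimen. The shared disease label therefore does not give the tumor state of each liver. None of the 13 libraries came from an untreated or chow-fed mouse. The hour at which each liver was taken, and whether the mice had eaten, are not given in the sources used here, so the livers were first placed relative to each other by their own clock genes and the genotypes were compared afterwards.

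The clock of a liver cell is a loop of transcription that takes about a day. ARNTL (BMAL1), paired with CLOCK or its relative NPAS2, binds E-boxes and switches on the *Per* and *Cry* genes, whose proteins return to the nucleus and block the pair, as well as *Nr1d1* (REV-ERB alpha), whose protein represses *Arntl* through ROR elements, and the D-box factors *Dbp* and *Tef*, which pass the rhythm on to metabolic genes. In liver, *Arntl* and *Npas2* are therefore known to peak at the opposite time of day from *Nr1d1* and *Dbp*, with the *Per* genes following *Dbp* and *Cry1* the last repressor to peak, and feeding time, glucocorticoids and body temperature can all set this clock.

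Between 13824780 and 20579984 counts were assigned to genes per mouse, and 13545 genes passed the expression filter and were tested. The 9 hepatocyte marker genes in the table summed to between 1367820 and 3024490 normalized counts, so every library was rich in liver RNA. *Nod2* had 0 to 4 counts in WT and 1 to 6 counts in *Nod2*-/- livers, too few to check the genotype labels. Neutrophil markers were uneven, with summed levels of 71.3 to 192 normalized counts in WT and 120 to 17641 in *Nod2*-/- livers, and lung epithelium markers were at 234 to 3336 and 47.6 to 553. In whole tissue, fewer cells of a type and less RNA per cell cannot be told apart.

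Per kilobase of annotated exon, the output genes were the most abundant clock transcripts. *Dbp* stood at 33.5 ± 12.3 FPKM (SD, n = 6) in WT and 34.2 ± 15.9 (SD, n = 7) in *Nod2*-/- livers, and *Tef* at 30.2 ± 4.62 and 26.7 ± 3.29, within each other's spread. *Per2* (10.5 ± 1.81 and 8.74 ± 1.26 FPKM) and *Nr1d1* (10.2 ± 7.20 and 15.8 ± 11.0 FPKM) came next and also could not be ordered beyond their spread. *Per1* (5.57 ± 1.14 and 6.58 ± 1.12 FPKM), *Per3* (5.19 ± 1.25 and 4.96 ± 1.57 FPKM) and *Cry1* (4.84 ± 1.57 and 3.79 ± 2.32 FPKM) followed, and neighbours in this order overlapped. The activators were lowest, with *Clock* at 2.42 ± 0.291 and 2.35 ± 0.494 FPKM and *Arntl* at 0.301 ± 0.160 and 0.429 ± 0.376 FPKM. *Npas2* was barely present, with at most 3 counts in any library, and it did not pass the filter, so 9 of the 10 genes were tested. On GRCm38, *Arntl* (ENSMUSG00000055116.8) lies at chr7:113207465-113314126, *Dbp* (ENSMUSG00000059824.12) at chr7:45705088-45710203, *Nr1d1* (ENSMUSG00000020889.11) at chr11:98767932-98775333, *Cry1* (ENSMUSG00000020038.10) at chr10:85131700-85185064 and *Per2* (ENSMUSG00000055866.9) at chr1:91415982-91459324. Exons of *Nr1d1* share 263 bases with *Thra* on the opposite strand, those of *Dbp* 539 with *Sphk2*, those of *Tef* 193 with *Gm17597* and those of *Arntl* 33 with *Gm45355*. The libraries were strand-specific, but the strand setting of the counting is not given, so reads in these stretches are uncertain.

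The DNA letters through which the loop is known to close can be read at the start sites of several of these genes, and they are shown for those whose levels are compared below. RefSeq windows on GRCm38.p6 were found for 9 of the 10 genes, all but *Per2*, and these windows of 300 bases, 250 of them upstream of the start, were searched on both strands for the E-box CACGTG, its variant CACGTT, the D-box in the forms TTATGTAA and TTATGCAA, and the ROR element in the forms TAGGTCA and TGGGTCA. Matches are in capitals and the sequences run 5′ to 3′ along the gene.
Per1 upstream window, chr11:69098699-69098948, plus strand: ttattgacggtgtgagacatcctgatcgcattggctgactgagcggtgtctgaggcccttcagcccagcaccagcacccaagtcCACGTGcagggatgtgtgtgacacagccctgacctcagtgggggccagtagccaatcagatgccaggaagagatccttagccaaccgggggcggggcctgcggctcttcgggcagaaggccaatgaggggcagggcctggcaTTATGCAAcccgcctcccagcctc
Per3 upstream window, chr4:151044666-151044915, minus strand: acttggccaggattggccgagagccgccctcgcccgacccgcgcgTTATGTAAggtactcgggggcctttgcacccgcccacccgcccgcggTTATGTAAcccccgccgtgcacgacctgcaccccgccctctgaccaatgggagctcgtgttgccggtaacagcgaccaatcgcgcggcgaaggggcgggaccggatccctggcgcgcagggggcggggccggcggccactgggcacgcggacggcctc
Cry1 upstream window, chr10:85185055-85185304, minus strand: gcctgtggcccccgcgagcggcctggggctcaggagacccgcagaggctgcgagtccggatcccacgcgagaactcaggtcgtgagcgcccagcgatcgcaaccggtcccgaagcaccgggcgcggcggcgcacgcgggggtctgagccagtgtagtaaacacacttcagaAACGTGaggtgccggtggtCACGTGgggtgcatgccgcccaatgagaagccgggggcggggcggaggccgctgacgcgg
Nr1d1 upstream window, chr11:98775378-98775627, minus strand: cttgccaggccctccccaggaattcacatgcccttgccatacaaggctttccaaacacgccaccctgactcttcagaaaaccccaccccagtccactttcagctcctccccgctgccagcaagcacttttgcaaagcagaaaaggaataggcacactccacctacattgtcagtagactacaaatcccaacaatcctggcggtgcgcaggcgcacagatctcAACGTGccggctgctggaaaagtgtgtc
Arntl site, chr7:113207529-113207558, plus strand: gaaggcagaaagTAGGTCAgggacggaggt
The *Per1* window held an E-box 166 bases and a D-box 24 bases upstream of the start, and the *Per3* window held D-boxes at 205 and 158 bases. *Cry1* had an E-box at 60 bases and the variant at 79 bases, the latter written as AACGTG because it lies on the other strand, and *Nr1d1* had the variant at 28 bases. The ROR element of *Arntl* lies 31 bases past the start of the second of its windows, and only this site is printed. E-boxes were found in both *Tef* windows, at 127 and 138 bases. Of all 32851 windows, 6.02% held the E-box upstream, 3.85% the variant and 1.5% a D-box, and 6.45% held a ROR element anywhere in the window. A match of letters is a description and not a measured site, and the windows of *Clock*, *Npas2* and *Dbp* held none of these letters.

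The spread of the clock genes over the 13 livers was uneven. *Nr1d1* had a within-genotype SD of 1.32 on the log2 CPM scale, higher than 98.9% of all tested genes, *Arntl* 0.88 (96.3%), *Dbp* 0.84 (95.7%) and *Cry1* 0.72 (92.8%), whereas the median gene had 0.27. *Per3* was intermediate with 0.42, and *Per1* (0.29), *Clock* (0.25), *Per2* (0.23) and *Tef* (0.20) were near or under the median. The highest library exceeded the lowest by 17.7-fold for *Nr1d1*, 7.88-fold for *Arntl*, 5.37-fold for *Cry1*, 5.19-fold for *Dbp* and 1.60-fold for *Tef*. The lowest and the highest liver were both *Nod2*-/- for *Nr1d1* and *Cry1*, while for *Arntl*, *Dbp* and *Tef* each genotype held 1 of them. The plot of normalized counts by mouse shows the spread within each genotype.

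**Figure D1:**
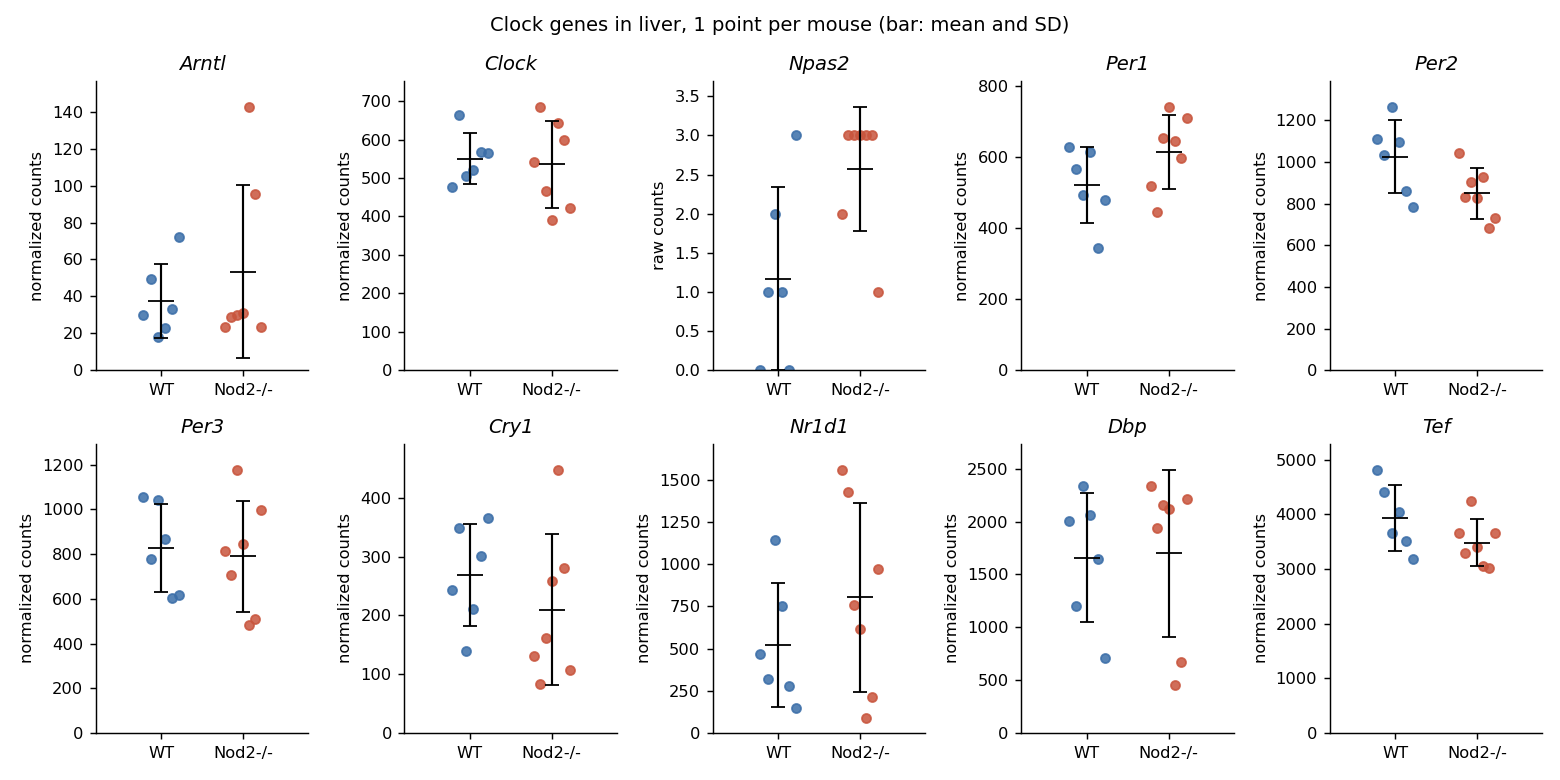
Normalized counts of each clock gene (raw counts for Npas2) on the y axis for the 6 WT and 7 Nod2-/- livers, 1 point per mouse, with the mean and SD as a bar. The genotypes overlap in every panel, and Nr1d1, Arntl, Dbp and Cry1 spread widely within each genotype.

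The widely spread genes moved with or against each other. The log2 CPM of *Arntl* and *Dbp* were almost mirror images across the 13 livers, with Pearson r = -0.98 (Spearman rho = -0.87). The r was -0.97 within WT and -0.99 within *Nod2*-/- mice, and -0.95 without *Nod2*-/- 5 and 6, the livers farthest from the median of *Arntl* (permutation test with 100000 resamples, p = 1e-05, the smallest it can give, and 0.000360 adjusted over 36 pairs). *Arntl* was also opposed to its repressor *Nr1d1* (r = -0.90, rho = -0.87, adjusted permutation p = 0.000450). *Nr1d1* and *Dbp*, both E-box targets, moved together (r = 0.91, rho = 0.86, adjusted permutation p = 0.000360).

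*Cry1* sided with *Arntl* and not with the other repressors. Its r was 0.73 with *Arntl*, -0.91 with *Nr1d1* and -0.73 with *Dbp* (rho = 0.83, -0.95 and -0.77, adjusted permutation p = 0.0187, 0.000450 and 0.0187). *Per3* sided with *Dbp* (r = 0.83, rho = 0.79, adjusted permutation p = 0.00173), *Tef* (r = 0.76, rho = 0.76, adjusted permutation p = 0.0151) and *Nr1d1* (r = 0.72, rho = 0.60, adjusted permutation p = 0.0217) and against *Arntl* (r = -0.81, rho = -0.70, adjusted permutation p = 0.00414). *Per1* followed neither side, with r = 0.0007 against *Dbp* and 0.01 against *Nr1d1*.

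In all, 11 of the 36 pairs passed 5% by Pearson r, 5 of them positive and 6 negative, and the last of these was *Clock* with *Per3* (r = -0.66, rho = -0.75, adjusted permutation p = 0.0498). By rank, 10 of the 11 passed as well, all but *Per3* with *Nr1d1*. All 11 kept their sign within WT mice, within *Nod2*-/- mice and without the 2 livers farthest from the median of the first gene. After each genotype's mean was subtracted, 10 of the 11 passed, all but *Clock* with *Per3*. Without *Nod2*-/- 5 alone, 6 pairs passed, and the r of those that no longer did were smaller but of like size: *Arntl* with *Cry1* had 0.65, *Cry1* with *Dbp* -0.65, *Per3* with *Tef* 0.71, *Per3* with *Nr1d1* 0.61 and *Clock* with *Per3* -0.60. With any other single mouse left out, 10 to 13 pairs passed. Without *Nod2*-/- 5, *Nod2*-/- 6 and WT 6 together, 2 did, *Arntl* with *Dbp* (r = -0.88) and *Cry1* with *Nr1d1* (r = -0.90), while the other 9 of the 11 kept their sign and no longer passed. Those 3 livers had the most *Arntl*, and with 10 livers a larger r is needed to pass. Why the 9 pairs no longer passed was not tested.

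**Figure D2:**
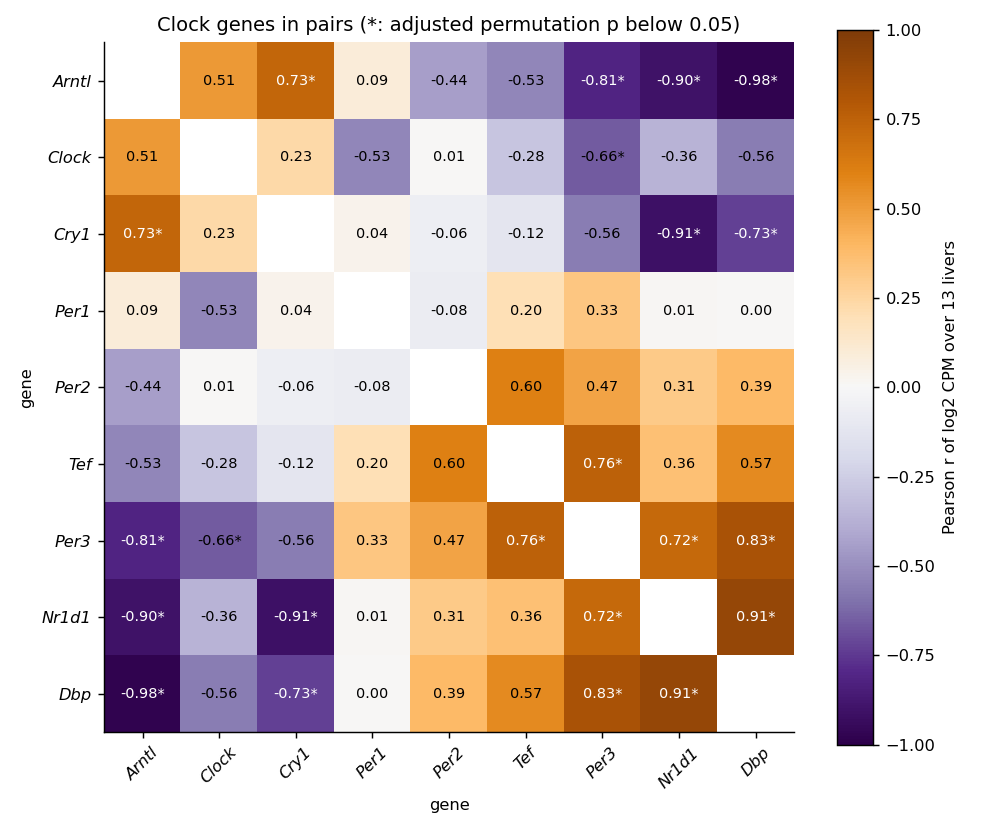
Pearson r of log2 CPM over the 13 livers for each pair of the 9 tested clock genes, with genes on both axes. Stars mark the 11 pairs with an adjusted permutation p below 0.05, which include the strongest, Arntl with Dbp at -0.98.

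These relations placed the livers along a line. By the log2 CPM of *Dbp* minus that of *Arntl*, the order from the top was WT 3 (6.87), *Nod2*-/- 1 (6.54), *Nod2*-/- 7 (6.44), WT 4 (6.37), *Nod2*-/- 3 (6.09), *Nod2*-/- 4 (6.01), WT 1 (5.99), *Nod2*-/- 2 (5.98), WT 5 (5.55), WT 2 (4.55), WT 6 (3.27), *Nod2*-/- 6 (2.78) and *Nod2*-/- 5 (1.65). Both genotypes were present at both ends. *Arntl* and *Dbp* set this order, so their own levels at its ends follow from it. The 3 livers at the low end had 72, 96 and 142 normalized counts of *Arntl* (WT 6, *Nod2*-/- 6 and *Nod2*-/- 5), against 18 to 49 in the other 10. Their *Dbp* was at 711, 670 and 451 normalized counts, against 1197 to 2342 elsewhere. Their hepatocyte markers (1927440, 1609780 and 1844380 summed normalized counts) lay inside the range of the other livers, and their neutrophil markers were at 192, 513 and 767. Whether cell make-up had a part in the order was not tested.

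**Figure D3:**
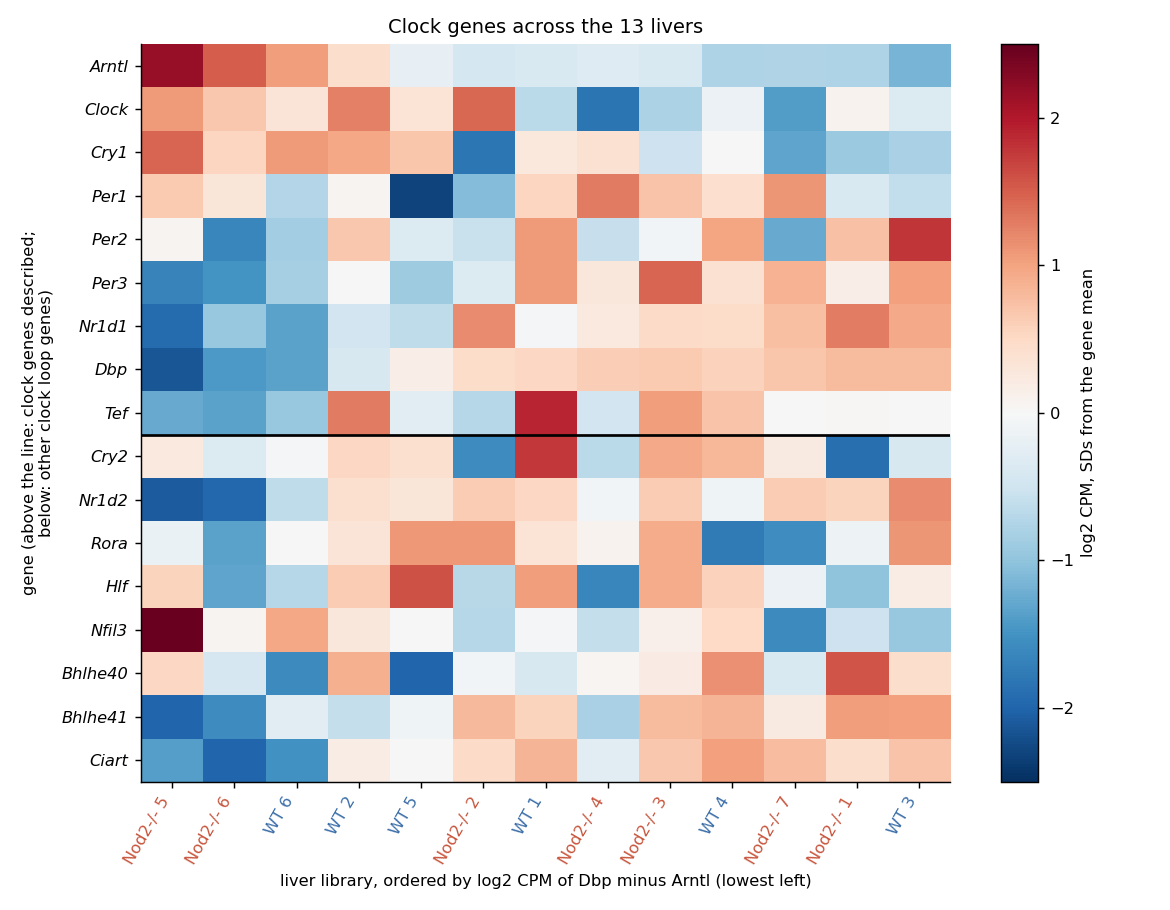
Log2 CPM of the 9 tested clock genes and of other loop genes (y axis), in SDs from each gene's mean, in the 13 livers ordered along the x axis by Dbp minus Arntl, with WT names in blue and Nod2-/- names in red. Dbp and Arntl set the order, so their own trends follow from it. Cry1 fades from left to right as Nr1d1 and Per3 rise, and both genotypes stand at both ends.

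A second placement used none of the 10 genes. The first principal component of 9 other genes of the loop, among them *Cry2*, *Nr1d2*, *Rora*, *Hlf*, *Nfil3*, *Bhlhe40*, *Bhlhe41* and *Ciart*, held 42.1% of their variance, with *Nr1d2* (r = 0.92), *Bhlhe41* (0.88) and *Ciart* (0.85) at its high end and *Nfil3* (-0.84) at its low end. Its mean was 0.0035 in WT and -0.0030 in *Nod2*-/- livers on a scale that ran from -4.09 to 2.20. The livers behind these means were spread differently. *Nod2*-/- 5 and 6 lay lowest, at -4.09 and -2.75, and the other *Nod2*-/- livers lay between 0.16 and 2.04. WT livers ran from -1.94 (WT 6) to 2.20 (WT 3). Other genes of the score had low r with it: *Cry2* (-0.27), *Rora* (0.25), *Hlf* (-0.01) and *Bhlhe40* (0.26). This score is called clock position here. It is a single straight axis, so it cannot tell the rising from the falling side of a daily cycle.

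Across the 13 livers, clock position was related to *Nr1d1* (r = 0.96, rho = 0.96), *Arntl* (r = -0.95, rho = -0.92), *Dbp* (r = 0.94, rho = 0.87), *Cry1* (r = -0.87, rho = -0.93) and *Per3* (r = 0.77, rho = 0.66), with permutation p between 1e-05 and 0.00181 and adjusted p between 4.50e-05 and 0.00326 over the 9 genes. It was not past the threshold for *Tef* (r = 0.44, rho = 0.40, adjusted permutation p = 0.196), *Clock* (-0.39, -0.34, 0.246), *Per2* (0.35, 0.36, 0.272) or *Per1* (-0.11, -0.11, 0.725). Without *Nod2*-/- 5 and 6, the livers farthest from its median, r was 0.96 for *Nr1d1*, -0.87 for *Arntl*, 0.84 for *Dbp*, -0.92 for *Cry1* and 0.51 for *Per3*. *Per2*, which codes for a repressor that is itself set by feeding and temperature, had r = 0.90 with clock position within WT and 0.18 within *Nod2*-/- mice, and its r with *Per3* was 0.94 and 0.16. The difference between the genotypes in these values was not tested.

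**Figure D4:**
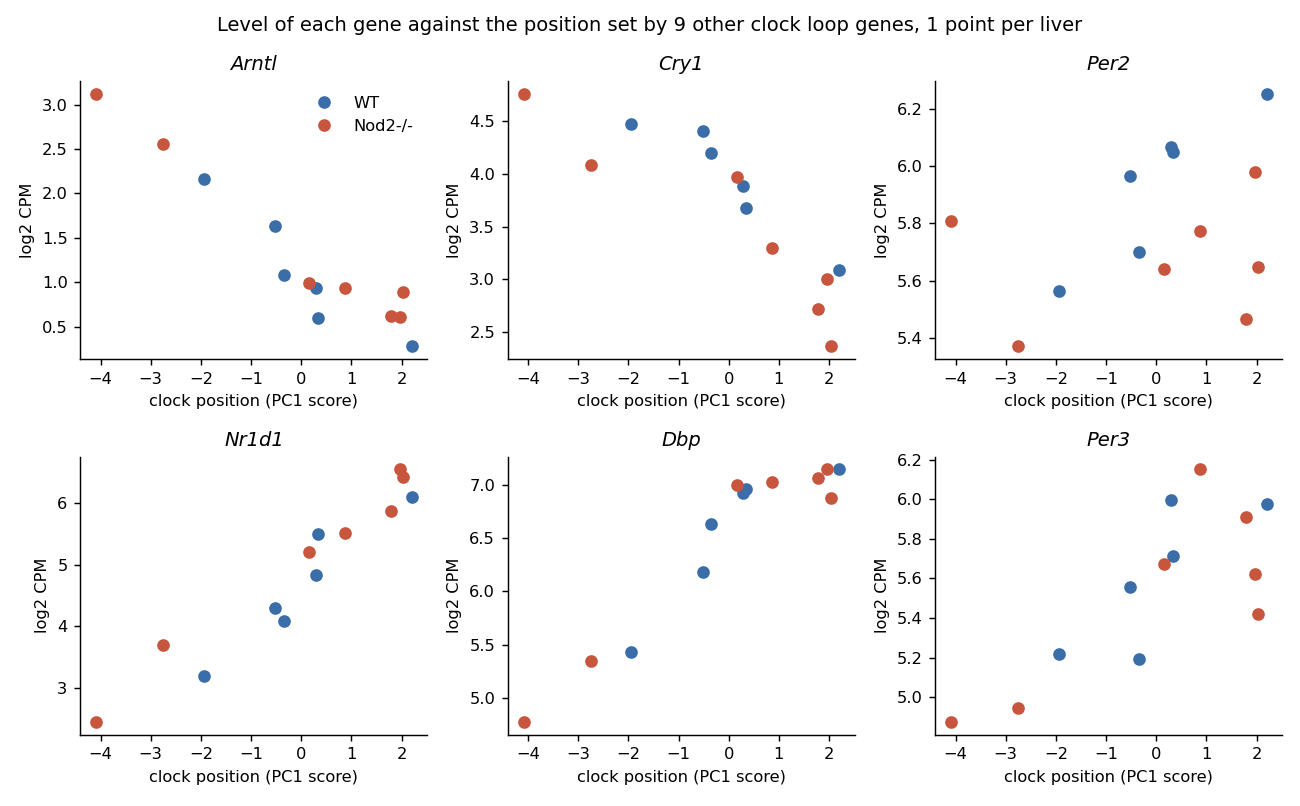
Log2 CPM (y axis) of 6 clock genes against clock position, the first principal component score of 9 other loop genes (x axis), 1 point per liver, WT in blue and Nod2-/- in red. Nr1d1 and Dbp climb and Arntl and Cry1 fall along the axis in both genotypes, and Per2 had r = 0.90 in WT and 0.18 in Nod2-/- points. At the high end the Cry1 points of Nod2-/- 1, 2 and 7 (3.01, 2.36 and 2.71) lie under that of WT 3 (3.09), the only WT liver there.

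The comparison of *Nod2*-/- with WT livers asked whether loss of *Nod2* went with a change in the clock genes. None of the 9 tested genes passed 5% FDR by edgeR's quasi-likelihood test, against 1.16% of all 13545 genes tested (0.65% higher and 0.509% lower in *Nod2*-/- livers), and 1 of the 9 (*Per2*) had an unadjusted p below 0.05, against 23.1% of all genes. Their median log2 fold change was -0.04, with 4 higher and 5 lower, beside 0.02 for all genes tested. DESeq2 also placed none of the 9 past 5% FDR, against 8.41% of all genes. In none of the 9 were the genotypes free of overlap, against 1.44% of genes.

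Among the activators, *Arntl* had 18.1 to 72.1 normalized counts in WT (median 31.4) and 23.3 to 142 in *Nod2*-/- livers (median 29.8). The medians nearly coincided and the higher *Nod2*-/- mean (53.5 ± 46.9, SD, n = 7, against 37.6 ± 20, SD, n = 6) came with 2 livers above all WT livers, *Nod2*-/- 5 and 6. The log2 fold change was 0.51 (SE 0.49, adjusted p = 0.550). With 1 mouse left out it ranged from 0.03 (without *Nod2*-/- 5) to 0.81 (without WT 6). *Clock*, the partner of ARNTL, was steady at 550 ± 66.2 and 536 ± 113 normalized counts, with a log2 fold change of -0.04 (95% interval -0.32 to 0.25). *Npas2* had 0 to 3 raw counts in WT and 1 to 3 in *Nod2*-/- livers, so no fold is given. After scaling, *Npas2* ran from 0 to 2.46 normalized counts in WT and from 0.98 to 3.41 in *Nod2*-/- livers, with 5 *Nod2*-/- livers above all WT livers. The exact permutation test gave p = 0.0140 without adjustment, the only one of the 10 genes below 0.05, at a depth of 0 to 3 counts per library.

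Among the *Per* repressors, *Per2* ran from 783 to 1262 normalized counts in WT (median 1064) and from 684 to 1044 in *Nod2*-/- livers (median 830). The groups overlapped, with 2 *Nod2*-/- livers under all WT livers. The means were 1024 ± 175 in WT and 849 ± 122 in *Nod2*-/- livers, a log2 fold change of -0.27 (SE 0.12, edgeR p = 0.0422, adjusted p = 0.201), which is not past the threshold, and the exact permutation test gave p = 0.0589. *Per1*, the member of the family that responds fastest to hormones, had 342 to 628 normalized counts in WT (median 529) and 444 to 739 in *Nod2*-/- livers (median 644). Here 4 of the 7 *Nod2*-/- livers lay above all WT livers, and the log2 fold change was 0.24 (SE 0.15, adjusted p = 0.335). *Per3* was at 604 to 1055 in WT (median 823) and 484 to 1176 in *Nod2*-/- livers (median 814), a log2 fold change of -0.07 (SE 0.21, adjusted p = 0.874).

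*Cry1*, which codes for the late repressor of the loop, ran from 139 to 366 normalized counts in WT (median 272) and from 83.3 to 447 in *Nod2*-/- livers (median 161). The *Nod2*-/- livers held both the highest value and, in 3 of 7, values under all WT livers. The log2 fold change was -0.35 (SE 0.35, adjusted p = 0.566), and with 1 mouse left out it ranged from -0.22 (without *Nod2*-/- 2) to -0.66 (without *Nod2*-/- 5), with -0.65 by voom. *Nr1d1*, the nuclear receptor that represses *Arntl*, ran from 150 to 1141 in WT (median 396) and from 87.9 to 1558 in *Nod2*-/- livers (median 756). The lowest and the highest liver were both *Nod2*-/-, and the log2 fold change of 0.63 had an SE of 0.58 (adjusted p = 0.527). It ranged from 0.38 (without *Nod2*-/- 1) to 1.02 (without WT 3) with 1 mouse left out and was 0.32 with the replicate block.

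Neither output gene differed past the threshold between the 2 genotypes, and the interval of *Dbp* was wide. *Dbp* had 711 to 2342 normalized counts in WT (median 1827) and 451 to 2341 in *Nod2*-/- livers (median 2116), with a log2 fold change of 0.03 (95% interval -0.75 to 0.82, exact permutation p = 0.921). *Tef*, a D-box factor with a shallower rhythm, had 3183 to 4810 in WT (median 3851) and 3015 to 4252 in *Nod2*-/- livers (median 3406). Its log2 fold change was -0.18 (95% interval -0.42 to 0.06, adjusted p = 0.358). The intervals of *Arntl* (-0.53 to 1.54) and *Nr1d1* (-0.60 to 1.86) were wide, and neither an equal level nor a 2-fold higher level in *Nod2*-/- livers lay outside them.

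With clock position as a covariate, the intervals of *Nr1d1*, *Arntl*, *Dbp*, *Cry1* and *Per3*, the genes related to it, narrowed. That of *Per1* did not (-0.07 to 0.55 without and -0.08 to 0.56 with clock position). The score entered the fit as a straight-line term, and no livers were matched by position. *Nod2*-/- 5 (-4.09) and 6 (-2.75) lay below every WT liver, the lowest of which was WT 6 (-1.94). The log2 fold change of *Cry1* was -0.48 (SE 0.15, 95% interval -0.80 to -0.16, adjusted p = 0.0759) and that of *Nr1d1* 0.41 (SE 0.15, 95% interval 0.08 to 0.74, adjusted p = 0.121). *Per2* was at -0.26 (SE 0.11, adjusted p = 0.166), as without the covariate. *Arntl* was at 0.26 (SE 0.16, adjusted p = 0.323), against 0.51 without the covariate. *Dbp* (-0.08, SE 0.15, adjusted p = 0.750) and *Per3* (-0.08, SE 0.14, adjusted p = 0.733) had been at 0.03 and -0.07 without it. None of the 9 passed 5% FDR in this fit, against 3.06% of all genes, while 3 of the 9 (*Cry1*, *Nr1d1* and *Per2*) had an unadjusted p below 0.05, against 26.7% of all genes. Clock position was itself measured in these livers, so a genotype difference in the score would be taken out by this fit. The mean score was 0.0035 in WT and -0.0030 in *Nod2*-/- livers.

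**Figure D5:**
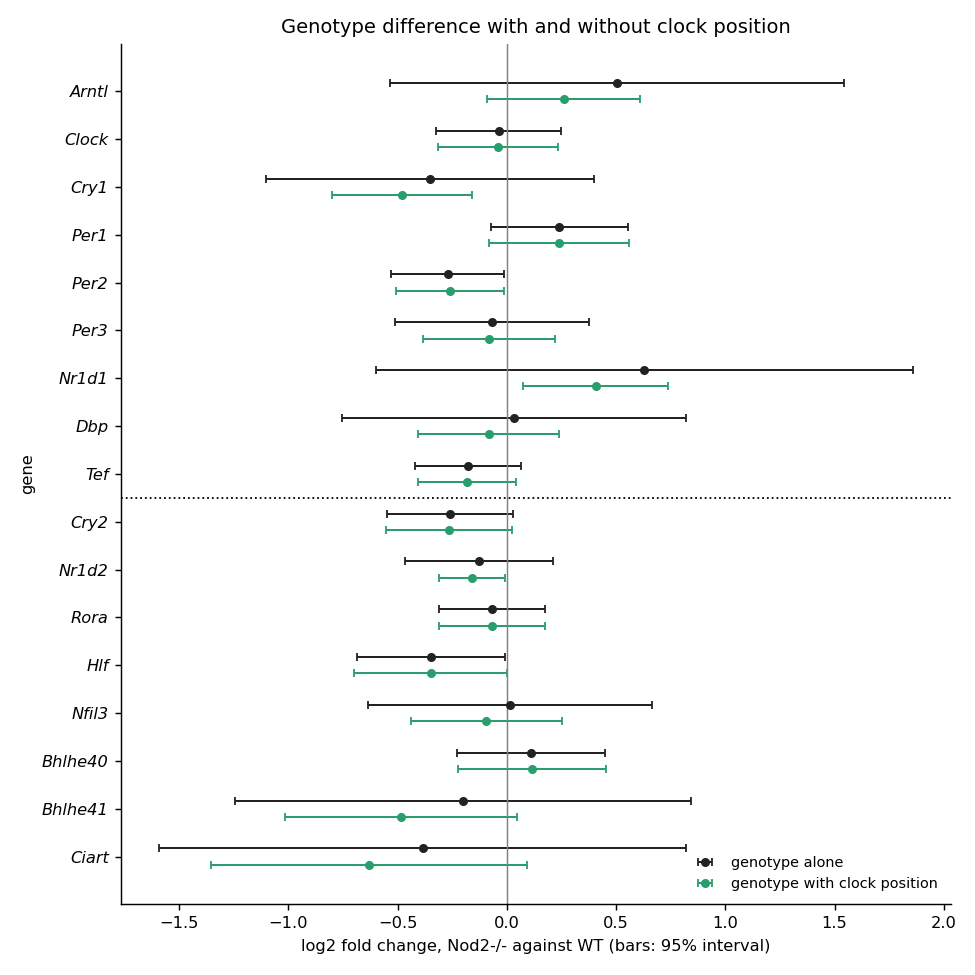
Log2 fold change of Nod2-/- against WT (x axis) with its 95% interval for the 9 tested clock genes and other loop genes (y axis), from edgeR with genotype alone (black) and with clock position added (green). The intervals of Arntl, Cry1, Nr1d1 and Dbp are narrower with clock position, and no gene shown passed 5% FDR in either fit.

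The rest of the loop was compared in the same way, from lists written from general knowledge but with earlier results of these data known. Of the 9 other loop genes tested, 2 were higher and 7 lower in *Nod2*-/- livers, with a median log2 fold change of -0.20, and 0 passed 5% FDR by edgeR (1.16% of all genes) or by DESeq2 (8.41% of all genes). The only unadjusted p below 0.05, against 23.1% of all genes, was that of *Hlf*, a D-box factor of the *Dbp* family (-0.35, SE 0.16, adjusted p = 0.207). *Rorb* did not pass the filter.

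Of 15 genes for kinases, ligases and other proteins known to act on or bind the PER and CRY proteins, 8 were higher and 7 lower (median log2 fold change 0.03) and 0 passed 5% FDR by edgeR, while 3 had an unadjusted p below 0.05 and DESeq2 placed 1 past 5% FDR. These shares are near or under those of all genes (1.16% by edgeR, 23.1% unadjusted and 8.41% by DESeq2). The gene past the threshold by DESeq2 was *Prkaa2*, a catalytic subunit of the energy sensor AMPK, which marks CRY1 for degradation (-0.43, SE 0.12, edgeR adjusted p = 0.0723, DESeq2 adjusted p = 0.0155). *Csnk1e*, a kinase of PER proteins, was at 0.42 (SE 0.16, adjusted p = 0.145) and *Timeless* at 0.57 (SE 0.25, adjusted p = 0.186).

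Of 20 genes that are known for daily rhythms in liver and lie downstream of the clock, 7 were higher and 13 lower in *Nod2*-/- livers (median log2 fold change -0.20), and 1 passed 5% FDR by edgeR and 4 by DESeq2, while 9 had an unadjusted p below 0.05 by edgeR. Over all genes these shares were 1.16%, 8.41% and 23.1%. *Wee1*, an E-box target and a kinase that delays entry into mitosis, was lower, with 393 to 572 normalized counts in WT (median 492) and 244 to 438 in *Nod2*-/- livers (median 330). The groups overlapped only in *Nod2*-/- 3, which lay above WT 6. The log2 fold change was -0.62 (SE 0.13, adjusted p = 0.0422), and -0.62 (SE 0.13, adjusted p = 0.0304) with clock position, but the call was lost when WT 1, 2, 4 or 5 or *Nod2*-/- 4, 5, 6 or 7 was left out, with folds from -0.57 to -0.65 and adjusted p up to 0.107. It was also lost with the replicate block (-0.58, adjusted p = 0.101) and without the 3 livers with the most *Arntl* (-0.65, adjusted p = 0.0770). The replicate block adds a term for each replicate number and leaves fewer degrees of freedom, and its part in the lost call was not tested. *Lpin1* (-1.11, SE 0.33, adjusted p = 0.0849), which makes diacylglycerol for triglyceride synthesis, *Por* (-0.84, SE 0.22, adjusted p = 0.0659), the electron donor of cytochromes P450, and *Nampt* (-0.56, SE 0.19, adjusted p = 0.111), which makes the precursor of NAD, were not past the threshold by edgeR. By DESeq2 they passed, with adjusted p = 0.0159 for *Lpin1*, 0.00683 for *Por* and 0.0481 for *Nampt*, and so did *Wee1* (DESeq2 adjusted p = 0.00108). *Cyp7a1*, the rate-limiting enzyme of bile acid synthesis, was at 0.99 (SE 0.37, adjusted p = 0.137).

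The genes most like the clock genes across the livers were sought among all tested genes that are not in the set. For *Dbp*, the highest Pearson r over 13 livers were those of the kinase gene *Tyk2* (0.90), the repressor gene *Etv3* (0.90), the loop genes *Ciart* (0.89) and *Nr1d2* (0.89) and the centromere gene *Cenpc1* (0.89). The lowest were *Clpx*, which codes for a mitochondrial unfoldase (-0.93), *Gfod2* (-0.92), *Insig2*, which codes for a brake on SREBP (-0.91), *Tusc2* (-0.90) and *Blcap* (-0.88). For *Arntl*, the highest were *Glrx2* (0.92), *Clpx* (0.91), *Gfod2* (0.91), *Map1lc3a* (0.91) and *Insig2* (0.91), and the lowest *Etv3* (-0.92), *Nr1d2* (-0.91), *Tyk2* (-0.91), *Sbf2* (-0.90) and *Ciart* (-0.89). The 2 references were opposite in these livers, so shared names between their lists are not separate results. Among all tested genes, *Nr1d1* had the highest r with *Dbp* and *Arntl* the lowest.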

How the data were processed

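Liver RNA of 6 WT and 7 *Nod2*-/- mice was sequenced in paired 43-base reads from strand-specific libraries of polyadenylated RNA. Per the submitters' processing notes, reads were trimmed with Trimmomatic 0.33 and mapped with TopHat2 2.1.1 to GRCm38, and DESeq2 was used. The authors deposited raw counts per gene and mouse, without normalization. The counting program, its strand setting and its handling of multi-mapped reads are not given in the sources used here. Depth was 13824780 to 20579984 counts per mouse, and 1 row with a blank gene name stayed out.

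The genes of the set and all lists were chosen with earlier results of these data known. Symbols and positions came from GENCODE M21, which held 53274 of the 53465 genes. Genotypes were compared with edgeR 4.0.16 in R 4.3.3 (TMM, filterByExpr, quasi-likelihood test, two-sided, Benjamini-Hochberg over 13545 genes). Normalized counts were scaled to the mean effective library size, and FPKM used the union of annotated exons. Log2 CPM had a prior count of 2. For each clock gene the mean normalized counts were also set against all splits of the 13 mice (exact permutation test, two-sided, smallest p 0.000583). *Npas2* was not tested, which left 36 pairs in place of the planned 45. Named genes were the set, members of the lists, and the 5 genes at each end by r with *Dbp* and with *Arntl*. Alternatives were DESeq2 1.42.0, voomWithQualityWeights of limma 3.58.1, RLE size factors, no filter, at least 10 counts in every mouse, a replicate block, clock position as a covariate, removal of the 20 most abundant genes and each mouse left out in turn. Leaving out WT 3 with *Nod2*-/- 7, or the 3 livers with the most *Arntl*, and all alternatives for *Wee1* and *Fgf21* were chosen after seeing the data. The fits and tests were tested on simulated data. Results for some single genes are left out. Nothing in the labels says how replicates were housed or processed, so p-values measure the spread between these mice.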

Additional observations from a re-analysis of the deposited data

Results flagged for a closer look

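Each genotype's values of the 10 clock genes and of 8 summed marker lists were searched for a single library far from the rest, 36 groups in all, and chance flags about 1 in 20 groups. No clock gene had such a library in either genotype, and 3 marker sums did. The hepatocyte marker sum of *Nod2*-/- 4 was 3024490 normalized counts, and the next *Nod2*-/- liver had 1981900. The neutrophil marker sum of *Nod2*-/- 7 was 17641 normalized counts, and the next had 1584. The macrophage marker sum of *Nod2*-/- 7 was 7119 normalized counts, and the next had 3789. *Nod2*-/- 7 stood at the high end of the clock order with WT 3 and *Nod2*-/- 1, and *Nod2*-/- 4 stood in the middle. Without WT 3 and *Nod2*-/- 7 together, 8 of the 36 pairs of clock genes passed 5%.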

How the results depend on the processing

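The clock genes stayed on the same side of the threshold: in 207 fits of single clock genes under the alternatives, 0 passed 5% FDR and the lowest adjusted p was 0.0759 (*Cry1*, with clock position). The sign turned in 18 of these. *Arntl* was at -0.16 and *Per3* at 0.062 without the 3 livers with the most *Arntl*, which were chosen by *Arntl* and of which 2 are *Nod2*-/-, so that the lower *Arntl* value follows from the choice. *Dbp*, at 0.03 in the reported fit, was at -0.0053 with voom, -0.16 with the replicate block and -0.083 with clock position. With 1 mouse left out, *Clock* ranged from -0.115 to 0.026 (positive without WT 2 or *Nod2*-/- 4 or 7), *Per3* from -0.188 to 0.025 (positive without WT 1 or *Nod2*-/- 5 or 6) and *Dbp* from -0.124 to 0.201 (negative without WT 2, WT 6 or *Nod2*-/- 1, 2, 3, 4 or 7). The cause of the other turns was not tested. By exact permutation test 0 of the 9 tested genes had p below 0.05 on either scale, and *Npas2*, with 0 to 3 counts, had p = 0.0140.

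The count of all genes past 5% FDR was 157. It was 1209 with DESeq2, 843 with voom, 414 with clock position, 35 with the replicate block, 567 without WT 3 and *Nod2*-/- 7, 39 without the 3 livers with the most *Arntl*, and between 41 (without WT 1) and 1156 (without WT 3) with 1 mouse left out. The number of pairs of clock genes past 5%, 11, ranged from 6 (without *Nod2*-/- 5) to 13 with 1 mouse left out and was 2 without the 3 livers with the most *Arntl*. The deviations of same-numbered mice from their genotype means had correlations of -0.30 to 0.30 over 6 pairs. Mice with different numbers were not compared, so these values cannot say whether the numbers pair the mice. In the replicate block *Nod2*-/- 7 has no WT mouse of its number, so it does not enter the genotype difference of that fit. *Npas2*, with at most 3 counts, was left out of these alternatives. Low counts of *Arntl* (18 to 142) and an unknown hour of collection limit what these livers can show.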

Other observations

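Feeding, glucocorticoids and temperature are the cues that set the liver clock, and lists of genes that answer to each were compared between the genotypes in the same edgeR fit. Over all genes, 1.16% passed 5% FDR by edgeR, 8.41% did by DESeq2 and 23.1% had an unadjusted p below 0.05 by edgeR, and the counts of each list stand beside these shares. Of 12 genes that follow fasting and refeeding, 6 were higher and 6 lower in *Nod2*-/- livers (median log2 fold change 0.12), 1 passed 5% FDR by edgeR and 2 by DESeq2, and 6 had an unadjusted p below 0.05 by edgeR. *Fgf21*, which codes for a hormone that liver secretes in fasting and under nutrient stress, was higher, with 53.3 to 113 normalized counts in WT (median 89.6) and 109 to 594 in *Nod2*-/- livers (median 263). Its log2 fold change was 1.70 (SE 0.32, adjusted p = 0.0261), and 1.58 (SE 0.28, adjusted p = 0.0179) with clock position, but the call was lost without WT 1, 2 or 4, with adjusted p up to 0.0728, and with the replicate block (1.58, adjusted p = 0.124). *Angptl4*, which codes for a fasting-induced inhibitor of lipoprotein lipase, was at -0.59 (SE 0.23, adjusted p = 0.155). With clock position *Angptl4* was at -0.61 (SE 0.12, adjusted p = 0.0267), past the threshold that 3.06% of all genes passed in that fit.

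Of 12 glucocorticoid-responsive genes, 5 were higher and 7 lower (median log2 fold change -0.23), 0 passed 5% FDR by edgeR, 2 did by DESeq2, and 5 had an unadjusted p below 0.05 by edgeR. *Klf9*, a glucocorticoid-induced transcription factor, had a log2 fold change of -0.55 (SE 0.16, adjusted p = 0.0794), and of -0.58 (SE 0.11, adjusted p = 0.0224) with clock position, past the threshold. By DESeq2, *Klf9* (adjusted p = 0.0188) and *Lcn2* (adjusted p = 0.00464) were past the threshold. *Lcn2* was at 3.86 (SE 1.08, adjusted p = 0.0734), and neutrophils, whose marker sum reached 17641 normalized counts in *Nod2*-/- 7, also express it. Of 12 temperature-responsive genes, 3 were higher and 9 lower (median log2 fold change -0.20), 0 passed 5% FDR by edgeR, 3 did by DESeq2, and 3 had an unadjusted p below 0.05 by edgeR, the last a share near the 23.1% of all genes. These were *Hspd1*, a mitochondrial chaperonin (-0.43, SE 0.12, adjusted p = 0.0673), and the cold-induced RNA-binding protein genes *Cirbp* (0.77, SE 0.25, adjusted p = 0.101) and *Rbm3* (0.89, SE 0.29, adjusted p = 0.102). Their DESeq2 adjusted p, all past 5% FDR, were 0.00559, 0.0445 and 0.0381.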
